A study of Mus musculus with 43 samples.

Results

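The genes described here encode mucosal defence proteins of the airway and alveolar surface, with the receptor that carries IgA across the epithelium: Pigr, Bpifa1, Bpifb1, Lyz1, Lyz2, Lpo and Reg3g. They were chosen by name and function, and all 7 were found by Entrez ID among the 24475 IDs of a count table of mouse lung mRNA. The table holds 43 strand-specific libraries. Of these, 15 came from mice given house dust mite (HDM), an airway allergen, for 15 weeks with an anti-IL-33 antibody, and 4 from mice given HDM for 15 weeks with an isotype control antibody. The other groups received no antibody and form an exposure series of 7 saline libraries, 10 libraries after 4 weeks of HDM and 7 after 15 weeks of HDM. All mice, saline controls included, carried the Il33hu/hu genotype on a C57BL/6NTac (75%) and 129S6SvEvTac (25%) background. No time is given for saline in the labels, so that age or time in the study cannot be told apart from HDM wherever saline is the control. Between 15 and 4 weeks of HDM, length of exposure likewise cannot be told apart from age or time in the study. The labels do not say whether any libraries share a mouse or litter, and the p-values measure only the spread between these samples.

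The polymeric immunoglobulin receptor (Pigr) binds polymeric IgA made by plasma cells below the epithelium, carries it through the cell and releases it at the surface with a piece of the receptor attached. Lysozymes cut bacterial cell walls, BPI-fold proteins bind bacterial lipids and lower surface tension in airway fluid, lactoperoxidase makes an antimicrobial oxidant from thiocyanate, and Reg3g is a lectin that kills Gram-positive bacteria. In mouse lung, Lyz2 is known from macrophages and type II alveolar cells, Bpifa1 and Bpifb1 from secretory cells of the larger airways.

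Both lysozyme genes lie next to each other on chromosome 10 of GRCm38.p6, at chr10:117287795-117292868 for Lyz1 and chr10:117277541-117282272 for Lyz2, on the minus strand with 5522 bases between them. Bpifa1 (chr2:154142880-154149217) and Bpifb1 (chr2:154190818-154220343) are separated by 41600 bases. Pigr lies at chr1:130826684-130852249, Lpo at chr11:87806428-87826114 and Reg3g at chr6:78466269-78468874, and none of the 7 overlaps another gene in the RefSeq annotation. The 250 bases upstream of the annotated start (RefSeq, GRCm38.p6) are shown first for the lysozyme pair, because these are near copies whose counts moved by different amounts. Capitals mark bases that differ, or have no partner, in a global alignment of both. The windows are chr10:117292869-117293118 for Lyz1 and chr10:117282273-117282522 for Lyz2, both on the minus strand, written 5′ to 3′.
Lyz1: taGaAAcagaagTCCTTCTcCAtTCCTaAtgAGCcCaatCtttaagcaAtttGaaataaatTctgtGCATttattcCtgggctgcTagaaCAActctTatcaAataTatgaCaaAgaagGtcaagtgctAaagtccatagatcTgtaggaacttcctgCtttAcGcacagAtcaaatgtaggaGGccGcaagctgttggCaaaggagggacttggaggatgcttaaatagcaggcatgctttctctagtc
Lyz2: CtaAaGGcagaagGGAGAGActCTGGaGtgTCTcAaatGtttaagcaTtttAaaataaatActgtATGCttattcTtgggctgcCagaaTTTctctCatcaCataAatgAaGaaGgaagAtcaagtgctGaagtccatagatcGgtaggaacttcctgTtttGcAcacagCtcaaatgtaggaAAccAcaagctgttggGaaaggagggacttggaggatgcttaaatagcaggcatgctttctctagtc
The aligned windows were the same at 200 of 252 columns (79.4%), and the bases nearest the start were the same in both. The windows of Pigr (chr1:130826434-130826683, plus strand) and Reg3g (chr6:78468875-78469124, minus strand) are shown because their RNA had the largest rises over saline among the tested members at both 4 and 15 weeks; capitals mark the E-box CACGTG.
Pigr: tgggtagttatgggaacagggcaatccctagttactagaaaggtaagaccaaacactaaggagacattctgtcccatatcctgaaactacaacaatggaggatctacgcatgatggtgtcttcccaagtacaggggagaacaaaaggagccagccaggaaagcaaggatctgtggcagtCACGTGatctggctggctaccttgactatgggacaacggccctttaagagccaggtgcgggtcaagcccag
Reg3g: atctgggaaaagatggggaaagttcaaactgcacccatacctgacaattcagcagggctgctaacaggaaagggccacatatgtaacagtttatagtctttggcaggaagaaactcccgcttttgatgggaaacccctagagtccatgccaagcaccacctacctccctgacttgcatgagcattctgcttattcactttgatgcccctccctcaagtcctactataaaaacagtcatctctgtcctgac
On both strands 4 motifs were searched, and their matches do not overlap in these windows: the E-box CACGTG, the STAT3-type TTCNNNGAA, the STAT6-type TTCNNNNGAA and the C/EBP-type TTGCNNAA. The E-box stood in Pigr, 71 to 66 bases upstream, and in 6.02% of 32851 promoters of the same length. A C/EBP-type match stood 209 to 202 bases upstream of Lyz1, as TTAAGCAA, whose last base is among those marked as different from Lyz2 (9.56% of promoters). The second of the Bpifb1 starts had a STAT3-type match at 146 to 138 bases, as TTCCAGGAA (7.02% of promoters). No other match to these 4 motifs, the STAT6-type included (5.85% of promoters), lies in the members' windows. These letters are a description of the sequence and not evidence of binding.

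Total counts per library ranged from 4.8 to 12.6 M. Markers of type II alveolar cells, a cell type of lung, summed to between 14500 and 53300 CPM in each library. CPM are counts per M counts after TMM scaling, and log2 fold changes come with the SE of the fit. A gene is said to rise or fall only where edgeR's quasi-likelihood test gave an adjusted p under 0.05 (Benjamini-Hochberg, over all 15598 genes tested). Library 1 of the 15-week group and library 3 of the 4-week group stood apart, with a median Spearman correlation with the rest of their group of 0.9131 and 0.9268, against at least 0.9647 for the others. Sample numbers form 2 ranges of unstated meaning, each holding libraries of every group, and the fit has a term for them. In bulk tissue, fewer cells of a type and less RNA per cell cannot be told apart.

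Per kb of exon, Lyz2 was the most abundant of the 7 in every group. In anti-IL-33 libraries it averaged 7237 CPM per kb (SD 2920, n = 15), followed by Lyz1 at 745 ± 224, Pigr at 162.4 ± 107, Bpifb1 at 40.42 ± 15.5, Reg3g at 32.05 ± 13.8 and Bpifa1 at 18.46 ± 32.6. Neighbours in the last 3 places lie within their spread of each other. In saline the order was Lyz2 at 2690 ± 592, Lyz1 at 505.7 ± 105, Pigr at 28.46 ± 16.5, Bpifb1 at 19.05 ± 11.1, Bpifa1 at 17.53 ± 25 and Reg3g at 3.54 ± 3.3 CPM per kb (SD, n = 7). Pigr, Bpifb1 and Bpifa1 were within their spread in saline, while after 15 weeks of HDM Pigr averaged 285 ± 112 and Bpifa1 1.93 ± 1.17 CPM per kb (n = 7).

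After 4 weeks of HDM, Pigr, Lyz2, Bpifb1 and Reg3g rose, Bpifa1 fell and Lyz1 did not pass the test, so that 4 of the 6 tested members were higher and 1 lower than in saline. Among all tested genes 29.3% were higher and 27.5% lower. After 15 weeks the same count held, 4 higher and 1 lower, against 31.2% and 28.1% of all genes. From 4 to 15 weeks, Lyz1 and Lyz2 rose and no member fell, against 12.3% and 9.08% of all genes. Lpo had too few counts for a test in any comparison. The members' median log2 fold change was 1.18 at 4 weeks and 1.43 at 15 weeks against saline, where the median of all genes was 0.01 both times.

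**Figure D1:**
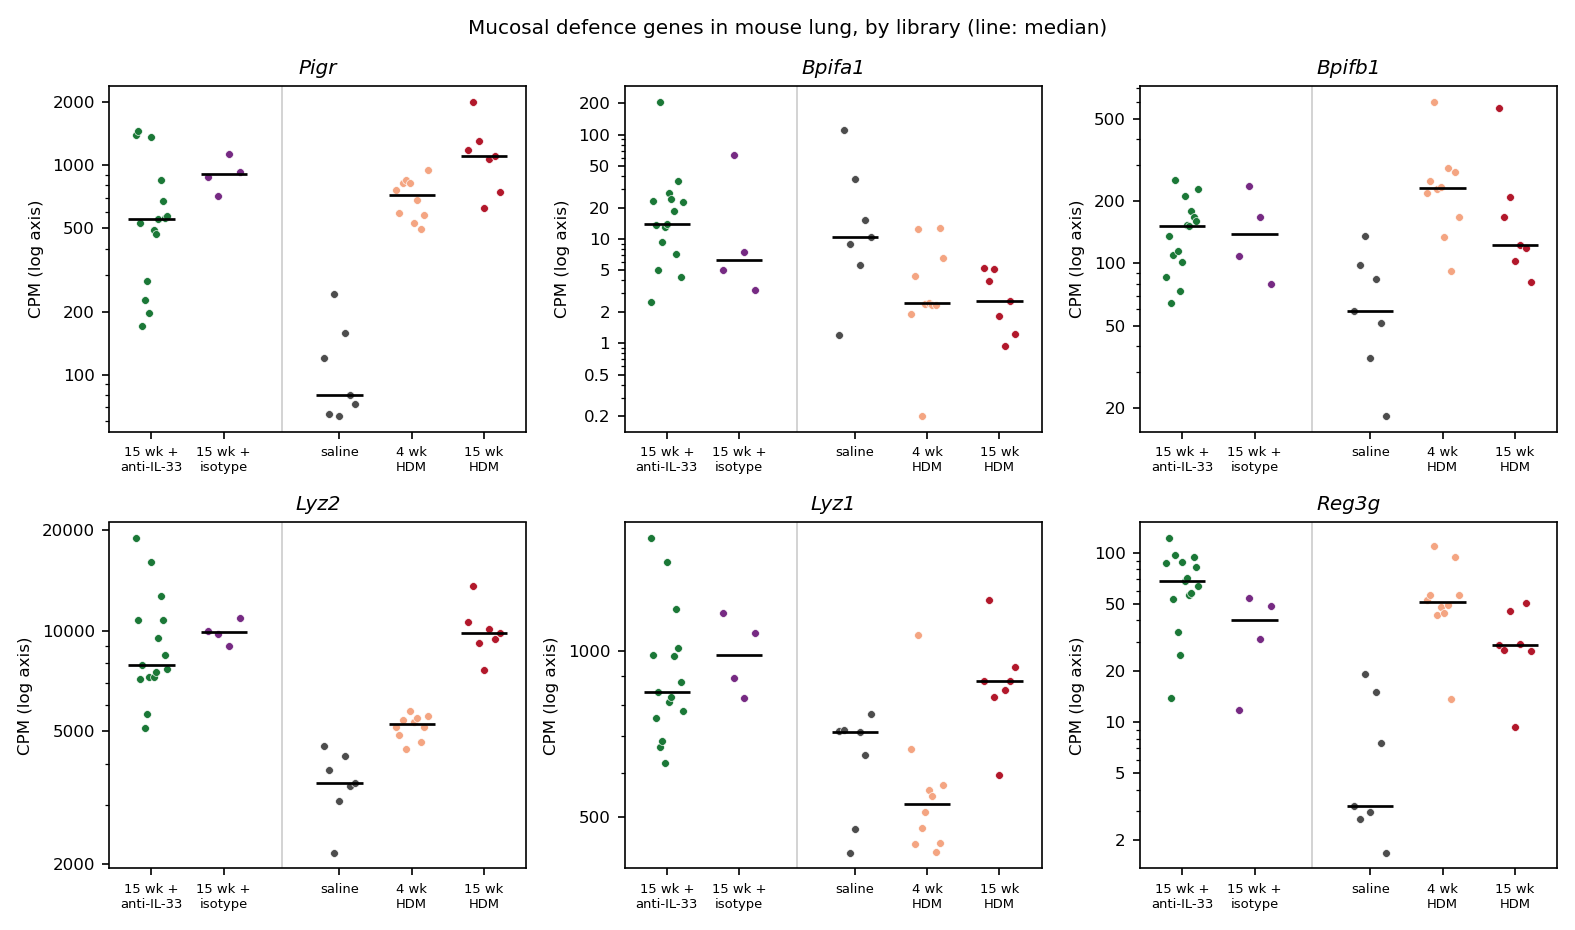
CPM on a log axis for the 6 tested members, 1 point per library, with a line at each group's median; the antibody groups are left of the exposure series. Every Pigr and Lyz2 value after 15 weeks of HDM lies above every saline value, while Bpifa1 is spread over 1.2 to 110.6 CPM in saline alone.

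Pigr, the IgA receptor, had between 493.2 and 946.8 CPM (median 720.4, n = 10) in 4-week libraries, against 63.47 to 242.5 CPM (median 80.21, n = 7) in saline. Between 623.2 and 2008 CPM (median 1100, n = 7) were counted after 15 weeks. Neither HDM group overlapped saline. The log2 fold change over saline was 2.6 ± 0.38 at 4 weeks (adjusted p = 4.73e-07) and 3.25 ± 0.42 at 15 weeks (adjusted p = 2.92e-08), or 6.06-fold and 9.51-fold. It rose in each number range taken alone as well, by 3.74 in range 1 and 2.92 in range 2 at 15 weeks. The 2 saline libraries with the most Pigr, library 3 at 242.5 and library 5 at 158.3 CPM, also had the largest summed goblet cell markers in saline, 1146 and 839.9 CPM, where the others had 69.75 to 487.9. Between 15 and 4 weeks the difference was 0.65 ± 0.35 (adjusted p = 0.174, interval -0.05 to 1.35), with the groups overlapping.

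The genes of IgA production that were measured with Pigr moved the same way. All 14 tested genes of that list, Pigr included, rose at both 4 and 15 weeks, with a median log2 fold change of 2.21 and 2.71. Igha, the IgA heavy chain gene, was not analysed here. Jchain, which joins IgA into the form that Pigr binds, averaged 4496 ± 1620 CPM after 15 weeks (SD, n = 7) and 141.8 ± 196 CPM in saline (n = 7), a log2 fold change of 5.03 ± 0.58 (adjusted p = 3.93e-09). Mzb1, a chaperone of antibody secretion, rose by 3.79 ± 0.37 at 4 weeks and 4.52 ± 0.40 at 15 weeks. Tnfrsf17, a survival receptor of plasma cells, rose by 3.66 ± 0.39 and 4.03 ± 0.41. Its saline level, 0.43 ± 0.38 CPM, was near the floor of 3 counts (0.242 to 0.423 CPM in saline), so the size of its folds is uncertain. The B cell survival factor Tnfsf13b rose by 1.12 ± 0.14 at 4 weeks and was lower at 15 than at 4 weeks, by -0.57 ± 0.13 (adjusted p = 0.00233). From 4 to 15 weeks, 2 genes of the list rose and 2 fell. Ccr10, a homing receptor of IgA plasma cells, and Tgfb1, an inducer of IgA switching, were the higher pair at 1.496 ± 0.35 and 0.76 ± 0.21. The median of Tgfb1 was 132.5 CPM after 15 weeks (highest 493.5) and 109 CPM after 4 weeks (highest 152). Summed plasma cell markers had a median of 5750 CPM after 15 weeks, 3000 after 4 weeks and 615 in saline. Of 10 such markers, which include Jchain and Mzb1, 9 rose at 15 weeks. Their part in the list's values was not tested.

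Bpifa1 and Bpifb1, neighbours in the BPI-fold cluster, moved in opposite directions under HDM. Bpifb1 had 92.09 to 603.3 CPM (median 230.5) in 4-week libraries and 18.34 to 135 CPM (median 59.17) in saline, and 8 of 10 HDM libraries were above every saline library. Its log2 fold change was 1.81 ± 0.39 (adjusted p = 0.000155). After 15 weeks it had 81.49 to 564.5 CPM (median 122.3), with only 3 of 7 libraries above all of saline, and a log2 fold change of 1.39 ± 0.42 (adjusted p = 0.00491). The highest 15-week value came from library 1, which stands apart, and without it the change in Bpifb1 was 0.91 (adjusted p = 0.0375). Neither number range alone gave a call for Bpifb1 at 15 weeks, with 1.57 (adjusted p = 0.0653) and 0.64 (adjusted p = 0.318).

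Bpifa1 had 0.20 to 12.59 CPM (median 2.41, n = 10) after 4 weeks and 0.94 to 5.26 CPM (median 2.51, n = 7) after 15 weeks, against 1.2 to 110.6 CPM (median 10.48, n = 7) in saline. All but 1 library of each HDM group lay inside the saline range, which spans 92.2-fold. It fell by 2.37 ± 0.74 on the log2 scale at 4 weeks (adjusted p = 0.00683) and by 3.43 ± 0.91 at 15 weeks (adjusted p = 0.00154). Without saline library 2, the highest, the 4-week value was -1.68 (adjusted p = 0.0624) and the 15-week value -2.56 (adjusted p = 0.0228). In number range 1 alone the 4-week value was -3.60 (adjusted p = 0.113). With the mean of each group and number range removed, Bpifa1 varied with the sum of 10 heart muscle genes (r = 0.634), as described below. The libraries with the highest values of each were not always the same. These 10 genes, chosen after the likeness was seen, summed to 98 to 276 CPM (median 145) after 15 weeks. In saline they summed to 186 to 769 CPM (median 487). At 15 weeks 9 of these 10 fell, and at 4 weeks 2 fell. Their part in the Bpifa1 result was not tested. Summed club cell markers were also lower, with a median of 10100 CPM after 4 weeks and 7950 after 15 weeks, against 22500 in saline; 9 and 8 of 9 fell. For ciliated cell markers the medians were 476 and 451 CPM, against 789 in saline, and 8 and 7 of 10 fell.

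In the BPI-fold family of 17 listed genes only 6 had enough counts for a test. Besides Bpifb1, the family's rises at 4 weeks were Bpifb5 at 0.92 ± 0.18 and Lbp, the lipopolysaccharide-binding protein, at 0.52 ± 0.17. At 15 weeks Lbp was up by 1.41 ± 0.19, Bpifb5 by 0.66 ± 0.20 and Bpifc by 2.01 ± 0.79. Bpifa1 was the member of the family that fell. Between 15 and 4 weeks neither Bpifa1 (-1.06 ± 0.90, adjusted p = 0.42) nor Bpifb1 (-0.42 ± 0.37, adjusted p = 0.437) passed the test, and Lbp rose by 0.89 ± 0.17.

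Lyz2, the macrophage and type II cell lysozyme, had 4417 to 5761 CPM (median 5246, n = 10) after 4 weeks of HDM and 7619 to 13610 CPM (median 9834, n = 7) after 15 weeks, against 2167 to 4533 CPM (median 3506, n = 7) in saline. The 15-week libraries overlapped neither of the other groups, and 9 of 10 4-week libraries were above all of saline. Lyz2 rose by 0.55 ± 0.19 at 4 weeks (adjusted p = 0.0114), by 1.48 ± 0.21 at 15 weeks (adjusted p = 1.43e-07) and by 0.93 ± 0.19 between 15 and 4 weeks (adjusted p = 0.000492). In number range 1 alone the 4-week change was 0.27 (adjusted p = 0.671), and in range 2 alone the change between 15 and 4 weeks was 0.86 (adjusted p = 0.0506).

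Summed macrophage markers, which leave out both lysozymes, had a median of 1550 CPM (1280 to 1870) after 4 weeks and 2160 CPM (1610 to 2710) after 15 weeks, against 564 CPM (376 to 788) in saline. Of 13 markers 8 rose at 4 weeks and 10 at 15 weeks. Type II markers had medians of 25700, 31100 and 17300 CPM in the same order, with 5 and 9 of 9 rising. Neutrophils are another known source of Lyz2, and their summed markers had medians of 288, 555 and 230 CPM in that order. Of 9 neutrophil markers 3 rose and 2 fell at 4 weeks, 8 rose at 15 weeks, and 6 rose and 1 fell between 15 and 4 weeks. Lyz2 CPM divided by the macrophage sum was 2.86 to 3.66 in 4-week libraries and 5.35 to 7.01 in saline, without overlap, and 3.52 to 6.17 in 15-week libraries. At 4 weeks the macrophage markers were thus further above saline than Lyz2 was. The part of cell numbers in the Lyz2 values was not tested.

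Lyz1, the lysozyme best known from Paneth cells of the mouse gut, had 431.8 to 1069 CPM (median 527.4) after 4 weeks and 595.9 to 1240 CPM (median 882.1) after 15 weeks, against 430.2 to 769.7 CPM (median 713.9) in saline. Above all of saline lay 6 of 7 libraries at 15 weeks and 1 of 10 at 4 weeks. At 4 weeks its log2 fold change was -0.18 ± 0.18 (adjusted p = 0.401), at 15 weeks 0.43 ± 0.20 (adjusted p = 0.0591). Leaving out the 2 libraries that stand apart put the 15-week value at 0.46 (adjusted p = 0.0286). It was higher at 15 than at 4 weeks, by 0.60 ± 0.18 (adjusted p = 0.0128), although all but 1 of the 15-week libraries lay within the 4-week range, which library 3 alone extends beyond 663.5 CPM. In range 1 alone that difference was 0.39 (adjusted p = 0.421), and in range 2 alone 0.83 (adjusted p = 0.0379). No other gene of the lysozyme family was tested, as 8 of the 10 listed had too few counts.

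Of all counts on the lysozyme pair, Lyz1 made up 9.84 ± 2.53% after 4 weeks (SD, n = 10) and 8.07 ± 0.53% after 15 weeks (n = 7), against 15.4 ± 1.66% in saline (n = 7). The 4-week libraries ranged from 7.99 to 16.5% and the 15-week libraries from 7.25 to 8.7%, with saline at 13.4 to 18%. Only library 3 of the 4-week group, at 16.5%, overlapped saline. In exact two-sided permutation tests the share fell by 5.54 percentage points after 4 weeks (p = 0.000617, adjusted over 6 comparisons 0.00123). After 15 weeks it fell by 7.32 points (p = 0.000583, the smallest these sizes allow, adjusted 0.00123). The difference between 15 and 4 weeks, -1.78 points, did not pass (exact p = 0.0442, adjusted 0.0582), and was -1.04 points without library 3 of the 4-week group (adjusted exact p = 0.0357). In ranges 1 and 2 alone the difference of 4 weeks from saline was -3.22 and -6.91 points, and that of 15 weeks -6.87 and -7.03 points. This share needs no scaling between libraries, but the transcripts are 92% identical (coding sequence 95%). Of all 50-base windows of the Lyz1 transcript, 16.1% occur exactly in another gene, mainly Lyz2, and 2.06% of 100-base windows do. The sources used here do not give the read length or how reads that fit both genes were handled, so the level of the split is uncertain. The part of such reads in the changes of Lyz1 and of its share was not tested.

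**Figure D2:**
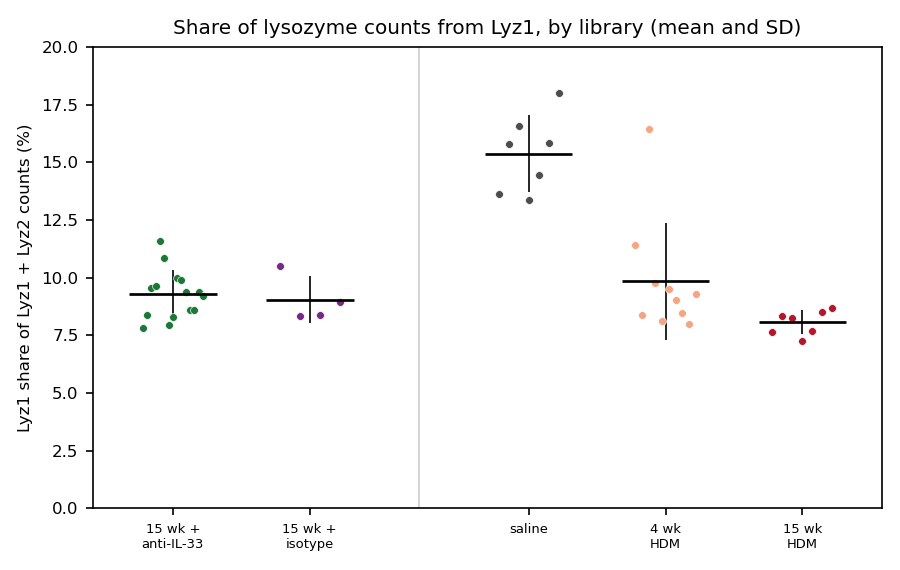
Percent of the counts on Lyz1 and Lyz2 that fell on Lyz1, 1 point per library, with mean and SD; antibody groups on the left, the exposure series on the right. Saline libraries lie at 13.4 to 18%, and all HDM libraries but 1 at or below 11.6%.

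Lpo, the lactoperoxidase gene, was barely measured: at most 2 counts fell on it in any library. The totals were 10 counts over the 15 anti-IL-33 libraries and 2 over the 4 isotype libraries, and along the exposure series 1 in saline, 2 after 4 weeks and 4 after 15 weeks. A count of 0 allows up to 3 counts, or 0.238 to 0.626 CPM depending on the library. A difference in Lpo at or below such levels was therefore not detectable at this depth.

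Other genes of the peroxidase system were measured. Slc26a4 (pendrin), an anion exchanger that carries thiocyanate into airway fluid, averaged 606.3 ± 73.1 CPM after 4 weeks and 24.51 ± 20.5 CPM in saline, a log2 fold change of 4.67 ± 0.44 (adjusted p = 7.81e-11). At 15 weeks it rose by 4.51 ± 0.46. The peroxide-making oxidase Duox1 averaged 6.60 ± 3.76 CPM after 4 weeks, 16.76 ± 26.2 after 15 weeks and 0.14 ± 0.15 in saline, and its maturation factor Duoxa1 3.59 ± 2.06, 5.41 ± 6.91 and 0.12 ± 0.12 CPM. Both rose at both times, and 3 of 6 tested genes of the list rose while 1 fell at each time. The saline levels of Duox1 and Duoxa1 are under the floor, and no fold is given for them. Slc26a4 is also among the goblet cell markers below. At 15 against 4 weeks Duox2 alone of the 6 rose, by 1.07 ± 0.33.

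Reg3g, the C-type lectin, had 13.77 to 110 CPM (median 51.13, n = 10) after 4 weeks and 9.41 to 50.7 CPM (median 28.44, n = 7) after 15 weeks, against 1.70 to 19.26 CPM (median 3.20, n = 7) in saline. All but 1 library of each HDM group were above every saline library. It rose by 2.96 ± 0.46 on the log2 scale at 4 weeks (adjusted p = 1.88e-06) and by 2.13 ± 0.49 at 15 weeks (adjusted p = 0.000306). Against 4 weeks, the 15-week value was -0.83 ± 0.41 (adjusted p = 0.144, interval -1.65 to 0.003). Saline libraries 3 and 5, at 19.26 and 15.07 CPM, were again the highest controls. The other 6 Reg genes had too few counts for a test.

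Goblet cell markers, summed, had a median of 2420 CPM (1620 to 3310) after 4 weeks and 1130 CPM (925 to 1650) after 15 weeks, against 178 CPM (69.8 to 1150) in saline, with 10 and 8 of 11 rising. Their order among the groups is that of Reg3g in the exposure series, and their part in it was not tested. Genes of IL-22 and IL-17 signalling, cytokines known to induce Reg3g in epithelia, rose in 5 and fell in 2 of 11 tested at 4 weeks, and rose in 8 and fell in 2 at 15 weeks. Il22ra1, the IL-22 receptor chain, fell by 0.93 ± 0.15 at 4 weeks, while its partner chain Il10rb rose by 0.34 ± 0.09 and Nfkbiz, a transcription cofactor of IL-17 signalling, by 0.52 ± 0.12. Socs3, a feedback inhibitor that STAT3 induces, rose by 2.07 ± 0.24 at 15 weeks, Il10rb by 0.67 ± 0.10 and Stat3 by 0.61 ± 0.10. Between 15 and 4 weeks 5 of the 11 rose, among them Socs3 by 1.42 ± 0.21, Osmr by 0.72 ± 0.15 and Stat3 by 0.41 ± 0.09, and none fell.

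Other antimicrobial proteins of the airway rose in 10 of 17 tested genes at 4 weeks and in 13 at 15 weeks, and none fell. Slpi, a protease inhibitor with antibacterial activity, averaged 442.7 ± 321 CPM after 4 weeks, 1723 ± 752 after 15 weeks and 22.58 ± 7.14 in saline. The log2 fold changes were 4.29 ± 0.44 and 6.25 ± 0.50. Lcn2, which binds bacterial siderophores, rose by 3.20 ± 0.41 and 4.72 ± 0.46, and the alveolar collectin Sftpd by 1.94 ± 0.22 at 15 weeks. Itln1, an intelectin and goblet cell marker, rose at 4 weeks, to 18.74 ± 13.1 CPM after HDM, against 0.18 ± 0.33 CPM in saline. From 4 to 15 weeks 6 rose and 1 fell, with Dmbt1, a scavenger-receptor glycoprotein, up by 3.97 ± 0.72, S100a8, a neutrophil calprotectin gene, by 1.47 ± 0.27 and Slpi by 1.96 ± 0.37.

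**Figure D3:**
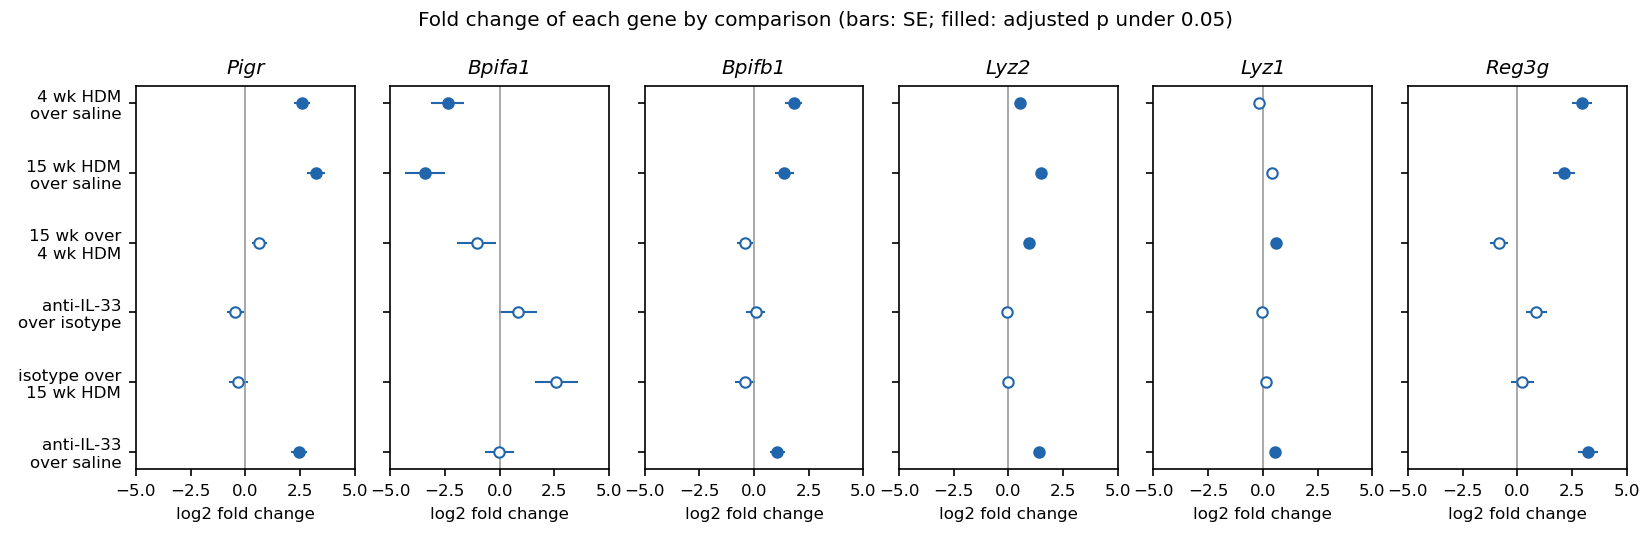
Log2 fold changes of the 6 tested members in 6 comparisons, first-named group over second, with SE bars; filled points have an adjusted p under 0.05. No point is filled for anti-IL-33 over isotype or isotype over no antibody.

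The antibody was compared with the isotype control at 15 weeks, and none of the 6 tested members passed the threshold in edgeR, where 3.58% of all genes were higher and 3.14% lower. At an unadjusted p under 0.05 the count was also 0, where 4352 of all 15598 tested genes passed. It was 0 as well with limma-voom and with DESeq2, whose calls among all genes are given further below. Reg3g had 13.97 to 122.4 CPM (median 68.02, n = 15) with anti-IL-33, against 11.78, 53.9, 31.24 and 48.81 CPM in the 4 isotype libraries. Above all isotype libraries lay 11 of the 15 anti-IL-33 libraries. Summed goblet cell markers had a median of 839 CPM with anti-IL-33 and 1180 CPM with the isotype, with 1 of 11 lower and none higher by the test. Single markers went both ways. Mean CPM with anti-IL-33 and isotype were 142 and 479 for Slc26a4 and 265 and 427 for Clca1. For Gp2 they were 37.9 and 17.7, and for Muc5b 259 and 137. The log2 fold change of Reg3g was 0.86 ± 0.48 (adjusted p = 0.232, interval -0.11 to 1.83).

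Pigr had 170.9 to 1458 CPM (median 554.9) with anti-IL-33, and 875.5, 715.4, 1125 and 931.5 CPM with the isotype. The antibody libraries were the more spread, with 11 of 15 below and 3 above all isotype libraries. Its log2 fold change was -0.46 ± 0.38 (adjusted p = 0.427, interval -1.22 to 0.31). Libraries 1, 2 and 8, at 1399, 1458 and 1368 CPM, were the ones above the isotype range, while libraries 4 to 7 had 170.9 to 280.5 CPM, 3 of them within the saline range. All of these are in number range 1, and the 7 anti-IL-33 libraries of range 2 had 468.7 to 847.7 CPM.

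Bpifa1 had 2.51 to 207 CPM (median 13.76) with anti-IL-33 and 4.99, 64.14, 7.54 and 3.24 CPM with the isotype, a log2 fold change of 0.84 ± 0.87 (adjusted p = 0.536). The highest value, in anti-IL-33 library 5, decides the sign, which was -0.15 without it (adjusted p = 0.919). Bpifb1 had 64.62 to 253.4 CPM (median 151.6) against 109.1, 237.1, 167.2 and 79.46 CPM (0.08 ± 0.43, adjusted p = 0.919). Lyz1 had 626 to 1606 CPM (median 843.5) against 1175, 892.6, 821.2 and 1078 CPM, a difference of -0.05 ± 0.20 (adjusted p = 0.887, interval -0.46 to 0.36). Lyz2 had 5122 to 18950 CPM (median 7911) against 9988, 9803, 8981 and 10960 CPM (-0.05 ± 0.21, adjusted p = 0.898, interval -0.47 to 0.37). The Lyz1 share was 9.27 ± 1.06% with anti-IL-33 and 9.05 ± 1.02% with the isotype (exact permutation p = 0.718, n = 15 and 4).

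Against the 7 libraries at 15 weeks without antibody, a control chosen as an alternative, 2 members were higher and 1 lower with anti-IL-33, where 15.9% of all genes were higher and 19.9% lower. Bpifa1 rose by 3.42 ± 0.85 (adjusted p = 0.00276), Reg3g rose by 1.10 ± 0.39 (adjusted p = 0.0272) and Pigr fell by 0.78 ± 0.31 (adjusted p = 0.0452). Bpifa1 was above all 7 of these controls in 12 of 15 anti-IL-33 libraries, and Reg3g likewise in 12. Among 14 genes of the IgA list 7 fell and none rose in this comparison, and of the 10 heart muscle genes 2 rose. The test put 7 of 9 club cell markers higher and 1 lower, and 7 of 10 ciliated cell markers higher. It put 6 of 10 plasma cell markers, some of which are in the IgA list, 6 of 9 neutrophil and 5 of 9 type II markers lower. Their part in these results was not tested. With isotype and no-antibody libraries pooled as the control, the same 3 genes were called, Bpifa1 at 1.93, Reg3g at 0.997 and Pigr at -0.68. Among all genes, more were called with the pooled control than with the no-antibody control, and both counts are given further below. Antibody treatment as such and IL-33 blockade cannot be told apart against controls without antibody.

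In the isotype group against 15 weeks without antibody, no member was called and 0% of all genes were higher and 0% lower in edgeR, with 933 genes at an unadjusted p under 0.05 and 8 called by DESeq2. Bpifa1 differed by 2.58 ± 0.98 (p = 0.0122, adjusted p = 0.798 in edgeR), and by 0.84 (adjusted p = 0.946) without isotype library 2, which had 64.14 CPM. The differences of the other members ran from -0.40 for Bpifb1 to 0.24 for Reg3g. The Lyz1 share was 9.05 ± 1.02% with the isotype and 8.07 ± 0.53% without (exact permutation p = 0.0485, adjusted 0.0582, n = 4 and 7).

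Among genes of the same systems, several fell with anti-IL-33 against the isotype. In the IgA list 3 of 14 fell and none rose: Tnfsf13b by 0.70 ± 0.15, Il6 by 1.64 ± 0.44, and Il5, both cytokines that support IgA-producing cells. Il5 averaged 0.14 ± 0.16 CPM with anti-IL-33 and 1.03 ± 0.69 CPM with the isotype (adjusted p = 0.00586 in edgeR). The Il5 level with anti-IL-33 is under the floor, and no fold is given for it. In the peroxidase list 3 of 6 fell, Slc26a4 to 141.5 ± 81.3 CPM with anti-IL-33, against 479.4 ± 165 CPM with the isotype (-1.85 ± 0.38, adjusted p = 0.00517), with Duoxa1 at -2.78 ± 0.64 and Duox1 at -2.40 ± 0.68. Of the other antimicrobial genes S100a8 fell by 0.92 ± 0.29 and Sftpd, a collectin of alveolar fluid, by 0.66 ± 0.21, and Ccl20, a chemokine with antibacterial activity, rose by 1.76 ± 0.56. None of 6 BPI-fold and none of 11 IL-22 and IL-17 genes passed the test. Neutrophil markers fell in 5 of 9 (median sums 310 and 496 CPM), and club cell markers rose in 4 of 9 (median sums 11100 and 8010 CPM).

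Against saline, 5 of the 6 tested members were higher in lungs given HDM with anti-IL-33 and none was lower, where 20% of all genes were higher and 18.5% lower. Reg3g was higher by 3.23 ± 0.46 (adjusted p = 5.58e-07), with 14 of 15 libraries above all of saline, and Pigr by 2.46 ± 0.37 (adjusted p = 1.19e-06), with 12 of 15. Lyz2 was higher by 1.41 ± 0.18, Bpifb1 by 1.06 ± 0.36 and Lyz1 by 0.53 ± 0.17. In number range 1 alone, with 8 and 2 libraries, the calls of Lyz1, Lyz2 and Bpifb1 were lost (adjusted p = 0.631 for Lyz1, 0.0793 for Lyz2 and 0.685 for Bpifb1). For Bpifa1 the difference was -0.01 ± 0.65 (adjusted p = 0.991, interval -1.33 to 1.3). Of the heart muscle genes 6 of 10 fell in this comparison, of the club cell markers 8 of 9 and of the ciliated cell markers 3 of 10, and none rose. The Lyz1 share was 9.27 ± 1.06% with anti-IL-33 and 15.4 ± 1.66% in saline, without overlap (exact permutation p = 5.86e-06, the smallest these sizes allow, adjusted 3.52e-05, n = 15 and 7). In the IgA list 12 of 14 genes were higher and none lower, with Jchain at 4.55 ± 0.54 and Mzb1 at 3.71 ± 0.36. In the BPI-fold family Lbp was higher by 0.80 ± 0.16, and the lipid transfer protein gene Pltp fell by 0.52 ± 0.16. In the peroxidase list Slc26a4 was higher by 2.59 ± 0.39. In the IL-22 and IL-17 list 8 of 11 were higher and 2 lower, with Socs3 at 1.06 ± 0.20. In the other antimicrobial list 12 of 17 were higher and none lower, with Slpi at 5.06 ± 0.46 and Lcn2 at 3.73 ± 0.41. Basal cell markers, low in sum (median 10.2 CPM with anti-IL-33 and 4.29 CPM in saline), rose in 6 of 6. Markers of other cells rose as well, in 10 of 10 for plasma cells and 10 of 13 for macrophages. For goblet cells 8 of 11 markers rose, and for type II cells 5 of 9 markers. Their part in the values of the members and lists was not tested.

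Within the 15 anti-IL-33 libraries, Pigr and both lysozyme genes varied together. Correlations of log2 CPM were computed for all 15 pairs of tested members, with permutation p-values adjusted over the 15. Lyz1 and Lyz2 had r = 0.96 and rho = 0.96 (adjusted p = 0.00015 for both, the smallest that 100000 permutations can give after adjustment). Pigr had r = 0.81 with Lyz2 (adjusted permutation p = 0.001, rho = 0.80, adjusted p = 0.00367) and r = 0.82 with Lyz1 (adjusted permutation p = 0.001, rho = 0.80, adjusted p = 0.0038). Without the 2 libraries farthest from the median of the first gene, r was 0.91, 0.92 and 0.86 for these pairs. Bpifb1 and Reg3g had r = 0.61 (adjusted permutation p = 0.0496), but rho = 0.42 (adjusted p = 0.211) and r = 0.12 without the 2 farthest libraries, so that relation rests on the 2 libraries. The other 11 pairs did not pass. Within number ranges 1 and 2 alone (8 and 7 libraries) r was 0.96 and 0.98 for Lyz1 and Lyz2, 0.82 and 0.94 for Pigr and Lyz2, 0.83 and 0.87 for Pigr and Lyz1, and 0.67 and -0.17 for Bpifb1 and Reg3g. In the 10 libraries at 4 weeks r was 0.44 for Lyz1 and Lyz2, 0.31 for Pigr and Lyz2 and 0.84 for Bpifb1 and Reg3g, given without a test. Summed macrophage markers were highest in libraries 1, 8, 12 and 2, at 2958, 2660, 2660 and 2169 CPM, which also had the most Lyz2 and Pigr. They were lowest in libraries 6 and 5, at 1015 and 1165 CPM, which had the least Lyz2. Library 4 had the least Pigr, 170.9 CPM, but the median level of Lyz1 and Lyz2. The transcripts of Lyz1 and Lyz2 are 92% identical, and how reads that fit both were handled is not given. The part of such reads and of macrophages in these correlations was not tested.

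The genes that varied most like each member were taken from all tested genes, as the 3 with the highest Pearson r over the 43 libraries after the mean of each group and number range was removed (1 library is alone in its group and range). These r values describe shared variation between libraries and have no test. Pigr was closest to Noxo1, an oxidase organizer (r = 0.911), the acute phase gene Orm2 (0.881) and Lcn2 (0.855). Lyz2 was closest to Rab32, a small GTPase of lysosome-related organelles (0.929), the lysosomal protease gene Ctsc (0.909) and Cybb, the phagocyte oxidase subunit (0.905). Lyz1 was closest to Mcemp1, a gene of mast cells and myeloid cells (0.864), the surfactant protein gene Sftpa1 (0.855) and Lyz2 (0.841). Bpifb1 was closest to Reg3g (0.74), the trefoil factor gene Tff2 (0.73) and Chad, a matrix protein gene (0.70), and Reg3g to the tachykinin receptor gene Tacr1 (0.78), the goblet and M cell gene Gp2 (0.77) and Bpifb1 (0.74).

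Bpifa1 was closest to the homeobox gene Otx1 (0.695) and then to 2 genes of heart muscle, Tnnt2 (0.638) and Myl7 (0.626). The 10 heart muscle genes summed gave r = 0.634 with Bpifa1, and each of the 10 alone between 0.363 and 0.638. That list was chosen after this likeness was seen in the same libraries. It holds Tnnt2 and Myl7 themselves, so its r is a description and no separate support. In mice, heart muscle also sheathes the pulmonary veins close to the root of the lung. Their part in the Bpifa1 values was not tested.

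**Figure D4:**
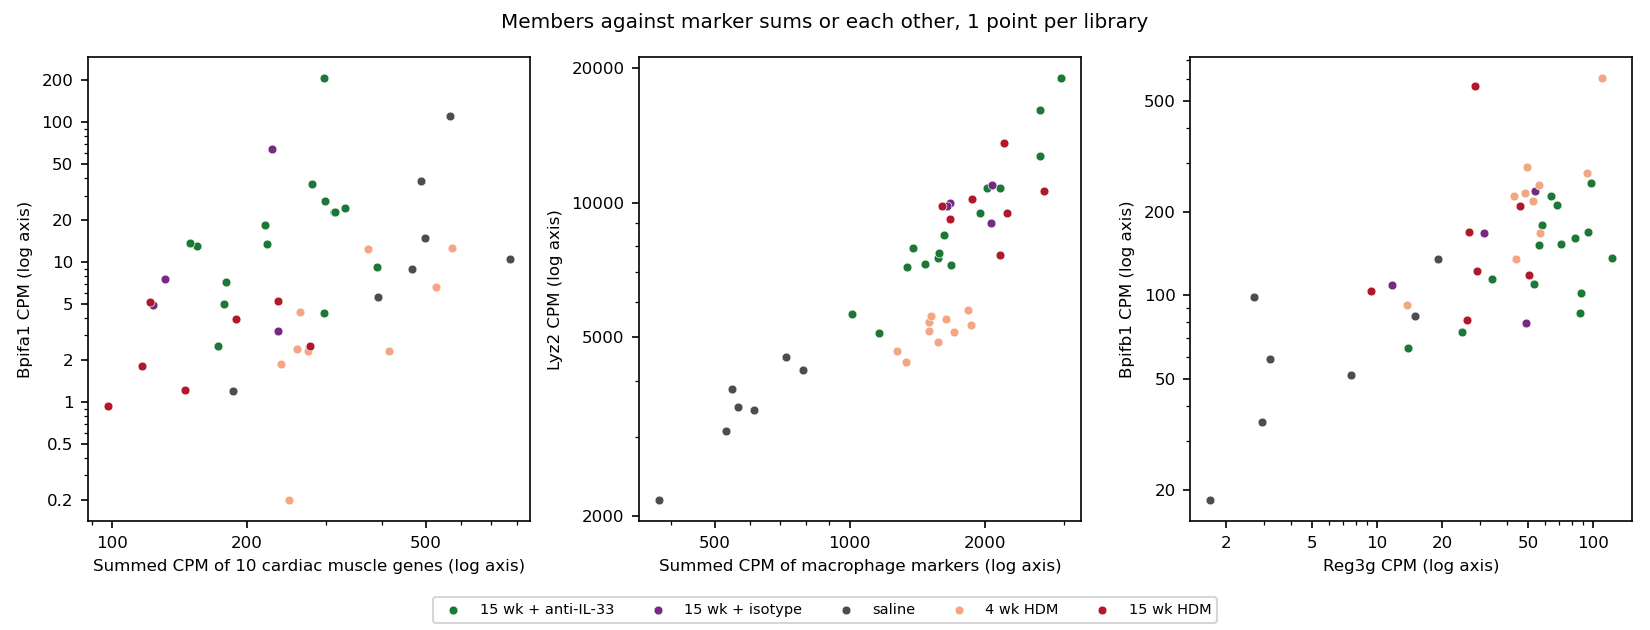
Bpifa1 against 10 heart muscle genes, Lyz2 against 13 macrophage markers and Bpifb1 against Reg3g, in CPM on log axes with 1 point per library. The ratio of Lyz2 to the macrophage sum is 2.86 to 3.66 in 4-week libraries, where it reaches down to 3.52 after 15 weeks and to no less than 4.31 in the remaining groups.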

How the data were processed

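Lung RNA of mice was sequenced as strand-specific mRNA libraries, 43 in all. Per the labels, total RNA was taken from lung and libraries were made with a stranded mRNA kit; the build was GRCm38, per the submitters' processing notes. The sources used here do not give the aligner, counter, annotation, strand setting or filters. Unnormalized counts for 24475 Entrez IDs are what the authors deposited, and 100 IDs without a RefSeq gene held 2.62% of them and were kept.

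All 43 libraries entered 1 edgeR 4.0.16 quasi-likelihood fit (robust, TMM, filterByExpr, 15598 genes tested, 37 residual degrees of freedom; R 4.3.3), with terms for group and for the 2 ranges of sample numbers, whose meaning is not given. Samples were grouped by their titles. The log2 CPM used a prior count of 2. Depth was 4.8 to 12.6 M counts per library; counting floors of 3 counts cover counting error only. The Lyz1 share and correlations used Python 3.11.15 and permutation tests. Exon lengths and transcripts came from GENCODE vM21 and promoters from RefSeq. The fit was tested on simulated data.

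The members and gene lists were chosen with earlier results of these data known. All 7 members were to be named in each comparison, with up to 3 called genes of smallest p per list, most of which are given; the heart muscle list was chosen after values were seen. Alternatives were DESeq2 1.42.0, limma-voom 3.58.1, other size factors, no filter, no range term, each range alone, only the 2 groups compared, other antibody controls, and leaving out each library; leaving out the 2 libraries that stand apart, library totals without TMM and leaving out libraries of groups other than the isotype were added after the data were seen.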

Additional observations from a re-analysis of the deposited data

Results flagged for a closer look

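Dixon's test was run on untransformed CPM, or on the Lyz1 share in percent, in 28 sets of 4 to 10 libraries. The sets were the 6 tested members and the share in each such group, and 6 sets had a library far from the others. The test's rate of about 1 in 20 by chance assumes normally distributed values. CPM can be skewed, and Bpifa1 spans 92.2-fold in saline alone, so 6 of 28 is not read as an excess. Library 3 of the 4-week group, which stands apart over all genes, was high in Lyz1 (1069 CPM, next 663.5), in Bpifb1 (603.3 CPM, next 288.1) and in the Lyz1 share (16.46%, next 11.4%). Library 1 of the 15-week group, the other that stands apart, was high in Bpifb1 (564.5 CPM, next 209). Bpifa1 was high in saline library 2 (110.6 CPM, next 37.78) and in isotype library 2 (64.14 CPM, next 7.54). Library 3 of the 4-week group also had the largest sums in that group of club cell markers (19650 CPM) and of type II markers (43980 CPM, next 27170). Library 1 of the 15-week group had the largest sums of type II (53250 CPM, next 35180), neutrophil (1013 CPM, next 731.8) and ciliated cell markers (699.8 CPM, next 578.5) in its group. Saline library 2 and isotype library 2 had heart muscle sums of 567.7 and 226.8 CPM, inside the range of their groups. The part of these markers in the flagged values was not tested.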

How the results depend on the processing

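No paired analysis was possible because the labels give no replicate numbers shared by groups. Over 372 member values under settings other than leaving out 1 library, 334 kept direction and side of the threshold, 12 lost and 10 gained a call and 16 changed sign, none of these 16 called in the report. Over 600 member values without 1 library, the numbers were 574, 1, 2 and 23.

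Calls among all genes numbered 8864 at 4 weeks and 9235 at 15 weeks over saline, 3334 between both times, 1047 with anti-IL-33 over its isotype, 0 between isotype and HDM without antibody, and 6015 with anti-IL-33 over saline. Leaving out 1 library gave 8277 to 9093, 8643 to 9269, 2517 to 3633, 58 to 1502, 0 to 11 and 5290 to 6189. The 58 came without isotype library 3 and 94 without isotype library 1. For anti-IL-33 against isotype other counts were 687 with no filter, 297 and 1 in ranges 1 and 2 alone, 4153 with only those groups, 1704 with DESeq2, 5588 with the no-antibody control, 6280 with the pooled control and 4639 without the 2 libraries that stand apart. For isotype against no antibody they were 7 with no filter, 4 with no range term, 1 in range 2, 8 with DESeq2, 3 with library totals and 1 without the 2 libraries. In range 1 alone 2308, 4194, 1406 and 578 genes were called at 4 weeks, at 15 weeks, between both times and with anti-IL-33 over saline. For 15 against 4 weeks the count was 149 in range 2 alone and 1206 with only those groups. Fewer samples were fitted in each range; for the other settings the cause was not tested.

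Members called were 3 at 4 weeks and 2 for anti-IL-33 against saline in range 1 alone, 1 between both times in either range or with only those groups, and 3 with either other control. Without 1 library they ran from 4 to 5 at 4 weeks and 5 to 6 at 15 weeks, and were 2 between both times, 5 with anti-IL-33 over saline and 0 in both other comparisons. Lyz1 at 15 weeks against saline passed with no range term (0.47), in range 2 (0.60) and without 15-week library 4 (0.51) or saline library 7 (0.48). Bpifb1 at 15 weeks was 1.1 (adjusted p = 0.102) with only those groups, and Bpifa1 -2.30 (adjusted p = 0.0554) with limma-voom.

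Signs changed as follows, all on the log2 scale. For anti-IL-33 against isotype, Bpifb1 was -0.0178 with no range term, -0.5427 in range 1, -0.1841 with only those groups, -0.3213 and -0.1965 with the no-antibody and pooled controls and -0.01765 without the 2 libraries; Lyz2 was 0.0371 in range 1, and Lyz1 0.1053 and 0.03768 with the 2 controls. For anti-IL-33 against saline, Bpifa1 was 0.08295 with no range term, 0.3782 in range 2 and 0.3248 with limma-voom. For isotype against no antibody, Pigr was 0.01603 and Lyz2 0.1865 in range 2, Lyz2 0.05019 with library totals and Bpifb1 0.1488 without the 2 libraries. Without 1 library, for anti-IL-33 against isotype, Bpifa1 ran from -0.1509 to 2.551, Bpifb1 from -0.1345 to 0.3733, Lyz1 from -0.1409 to 0.03666 and Lyz2 from -0.1682 to 0.0311. Bpifa1 ran from -0.6985 to 0.7746 for anti-IL-33 against saline. For isotype against no antibody, Bpifb1 ran from -0.7052 to 0.1333, Lyz2 from -0.09588 to 0.06854 and Reg3g from -0.05356 to 0.5258.

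The Lyz1 share differed in range 1 alone by -3.22 points for 4 weeks against saline (too few libraries for a call), -6.87 for 15 weeks against saline (adjusted p = 0.0714, exact permutation), -3.65 between both times (0.0476) and -5.46 for anti-IL-33 against saline (0.0667), and in range 2 by -7.03 for 15 weeks against saline (0.0952). Without 1 library it ran from -6.27 to -5.10, -7.65 to -6.88, -1.98 to -1.04 and -6.45 to -5.67 in those 4 comparisons, and from -0.0131 to 0.712 for anti-IL-33 against isotype and 0.494 to 1.22 for isotype against no antibody. Of the 15 correlated pairs 4 passed by Pearson and 3 by Spearman. Depth limits Lpo, with at most 2 counts in a library.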
